A study of Mus musculus with 4 samples.

Results

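Genes for the proteins of the cytosolic ribosome were followed in the gastric corpus, the acid-secreting part of the mouse stomach. Members were the genes whose symbol is Rpl or Rps followed by a digit, or Rplp0, Rplp1, Rplp2 or Rpsa, and that had a probe set annotated to them alone. Genes with -ps in the symbol and the S6 kinases (symbols that begin with Rps6k) were left out. This gave 69 of the 22180 genes on the array, each represented by the probe set with the highest mean over the 4 arrays. They comprised 23 proteins of the small subunit, 35 of the large subunit, 7 paralogs (near copies such as Rps27l) and 4 genes that carry a ribosomal protein in their name (Rpl6l, Rpl32l, Rps19bp1 and Rps23rg1). Of 77 core proteins listed, 19 had no probe set of their own and are described from probe sets shared with other genes.

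A ribosome translates mRNA into protein, and its small subunit decodes the message while the large subunit joins the amino acids. Most of these proteins are needed in equal numbers, and their mRNAs are abundant in secretory tissue. Many of their mRNAs begin with a terminal oligopyrimidine (TOP) tract, a run of C and T bases at the 5′ end through which the kinase mTORC1 controls their translation. AMPK, the energy sensor that metformin can activate, restrains mTORC1.

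Wild-type (WT) mice of strain C57BL/6 and AmpkKO mice (KO; genotype Atp4b-cre; Prkaa1fl/fl; Prkaa2fl/fl), all aged 8 to 10 weeks received daily intraperitoneal injections for 14 days. Each genotype was given either metformin, at 300 mg/kg, or the saline vehicle alone. Total RNA of the whole corpus was hybridised, with a single array for each of the 4 groups, and the labels do not say how many animals an array stands for. Atp4b-cre acts in parietal cells, so other cells of the KO corpus keep both AMPK catalytic subunits, and the submitters describe fewer and less mature parietal cells in these mice. The KO mice came from a mixed B6 and FVB background, so genotype and background cannot be told apart.

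Values are log2 expression. The 4 arrays had medians of 4.40 to 4.55 over 41345 probe sets. Prkaa1 was lower in KO than in WT by a difference of -1.28 under vehicle and -0.24 under metformin, and Prkaa2 by -1.71 and -0.50. All 15 measured parietal cell markers were past the filter on low values, with a list median of 9.88 on the WT vehicle array and 9.51 on the KO vehicle array. A gene passed this filter when its mean reached the median of all gene means (5.03), which left 11090 genes and 52 of the 69 members. The filter left 17 members out. Because each group is 1 array, the spread between replicates is unknown. Differences are therefore given as sizes, and 2-fold (an absolute difference of 1) is the rule for counting. In whole tissue, fewer cells of a type and less RNA per cell cannot be told apart.

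Across the 4 arrays the ribosomal protein genes were lowest on the WT vehicle array and highest on the KO vehicle array more often than other genes were. The WT vehicle array was the lowest for 36 of the 52 members, and the KO vehicle array was the highest for 29. Both held for 26 of the 52 members, against 10.6% of all 11090 genes, and the opposite order held for 2 members, against 28.8% of all genes. This count was chosen after the values were seen. The median member stood at 8.64 under vehicle and 9.20 under metformin in WT, and at 9.14 and 8.94 in KO.

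**Figure D1:**
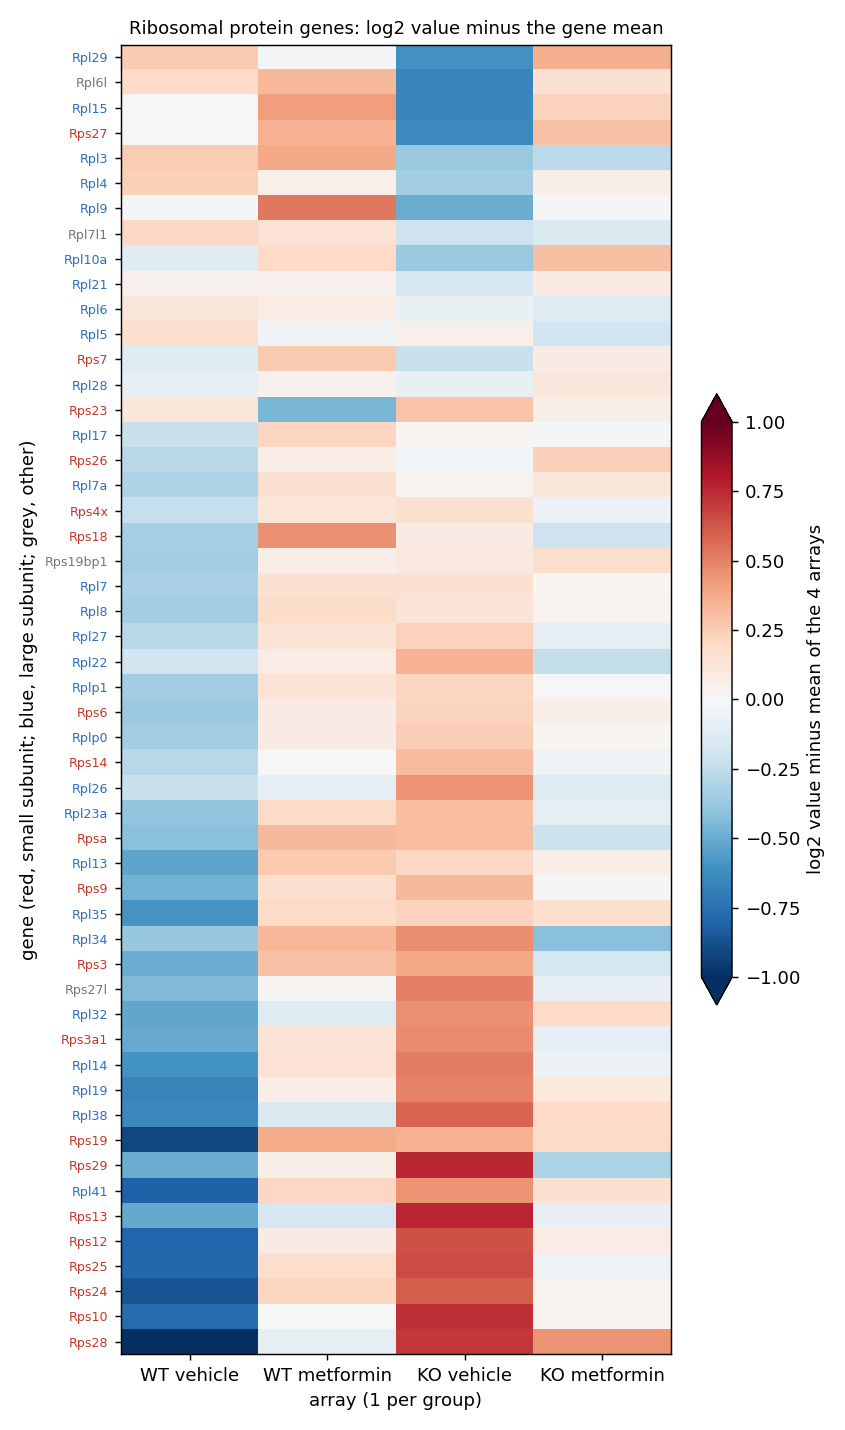
Log2 value of each of the 52 ribosomal protein genes past the filter, minus that gene's mean over the 4 arrays (colour), with 1 array per column and genes ordered by KO minus WT under vehicle. Most of the bottom rows, down to Rps28, are lowest in WT vehicle and highest in KO vehicle, and the top rows, from Rpl29 to Rpl9, are lowest in KO vehicle.

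To describe the corpus without AMPK in parietal cells, KO was compared with WT under vehicle. Ribosomal protein genes were mostly higher in KO, with a median difference of 0.58 against -0.22 over all genes. Of the 52 members, 43 were higher than the median gene and 39 above 0. At least 2-fold higher were 12 members (23.1%), against 2.31% of all genes, and none was 2-fold lower, against 8.12% of all genes. Of the 48 members at or above the filter value on every array, 11 were 2-fold higher (22.9%). The share over all genes was not filtered in this way. Small subunit genes had a median of 0.84, with 8 of 20 at least 2-fold higher, and large subunit genes 0.50, with 4 of 28. The 8 include Rps10, whose WT vehicle value (4.41) is under the filter value. The member nearest past the 2-fold rule was Rpl14 (1.11), and the nearest short of it was Rps3a1 (0.98).

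Rps28, a small protein of the head of the small subunit near the mRNA exit, differed most. Its values were 9.54 in WT with vehicle, 10.52 in WT with metformin, 11.31 in KO with vehicle and 11.05 in KO with metformin, a 3.40-fold difference of KO from WT under vehicle. Both KO values were above both WT values. A second, dimmer probe set of Rps28 had a smaller difference under vehicle, 0.48 beside 1.77. Rps24 stood at 8.73, 9.80, 10.20 and 9.62 in the same order of arrays (2.77-fold), and Rps25 at 7.25, 8.21, 8.69 and 7.98 (2.71-fold). In both genes WT vehicle was the lowest and KO vehicle the highest array. Rps24 is one of the genes mutated in Diamond-Blackfan anaemia, and Rps25 takes part in translation from internal ribosome entry sites.

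Rps12 had values of 10.29, 11.16, 11.72 and 11.15 (2.69-fold in KO under vehicle). Both metformin arrays lay between the vehicle arrays, with a difference of -0.01 (KO minus WT). Rps13, which sits at the interface between the subunits, had 7.77, 8.12, 9.05 and 8.20 (2.43-fold). KO vehicle was again the highest array and WT vehicle the lowest. Rps29, a zinc-binding protein near the decoding site, had 6.02, 6.58, 7.28 and 6.21 (2.38-fold).

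Rps19, the gene most often mutated in Diamond-Blackfan anaemia, had a different order, with 7.47 on the WT vehicle array and 8.74, 8.72 and 8.57 on the other 3. The WT vehicle array alone was low. Another probe set of Rps19 had the same 4 values, while a dimmer probe set had 5.09, 5.53, 5.36 and 5.07, a difference of 0.28 in KO under vehicle. Rpl41, the shortest ribosomal protein, had 11.35, 12.37, 12.61 and 12.31, with WT vehicle again alone at the low end. Its 4 other probe sets had differences of 0.50, 1.08, 1.45 and 1.49 in KO under vehicle, beside 1.25 for the one used. The remaining large subunit genes past 2-fold were Rpl38 (1.23), Rpl19 (1.16) and Rpl14 (1.11), and Rpl38, known for its part in translating Hox mRNAs, had 10.60, 11.10, 11.83 and 11.44. Rps10, another gene of Diamond-Blackfan anaemia, also passed, with 4.41, 5.17, 5.91 and 5.21. Its WT vehicle value is below 5.03, and no fold is printed for it.

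Rps6, the substrate of S6 kinase downstream of mTORC1, had 11.44, 11.89, 12.04 and 11.88, a difference of 0.59 in KO under vehicle. Rplp0, a stalk protein often used to normalise PCR data, had 7.12, 7.55, 7.71 and 7.48, also a difference of 0.59. Both were lowest in WT vehicle and highest in KO vehicle. Rpsa, also known as the laminin receptor, had 9.54, 10.29, 10.27 and 9.75. It was high on the WT metformin and KO vehicle arrays and low on the other pair.

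A smaller set went the other way under vehicle. Rpl29 had 11.60 under vehicle and 11.33 under metformin in WT, and 10.74 and 11.70 in KO, a difference of -0.86 under vehicle, and Rpl15 had 10.65, 11.06, 10.00 and 10.87 (-0.65). Next were Rpl6l, annotated as a pseudogene (-0.85), Rps27 (-0.64), Rpl3 (-0.63), Rpl4 (-0.58) and Rpl9 (-0.48). KO vehicle was the lowest array for each of these 7 genes. In Rpl3 both KO arrays were low, with 7.38 under vehicle and 7.50 under metformin, against 8.01 and 8.13 in WT. Rpl4 had 11.89, 11.71, 11.31 and 11.71, and Rpl9 had 8.03, 8.58, 7.56 and 8.03.

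For several of them the direction depended on the probe set. A second probe set of Rpl29 gave a difference of 1.56 in place of -0.86, one of Rpl4 gave 0.42 in place of -0.58, and 2 of Rpl3 gave 0.54 and 0.43 in place of -0.63. That of Rpl9 gave 0.42 in place of -0.48. These probe sets were dimmer, as the brightest one stood for each gene. A probe set shared by Rps27 and its copy Rps27rt gave 0.37, against -0.64 for the Rps27 probe set used. Another, shared by Rpl15 and Gm10224, gave 0.03, against -0.65 for the Rpl15 probe set used. Of 25 members with several probe sets, 5 had another probe set of opposite sign and more than 1 away in this comparison (Rpl29, Rpl3, Rpl4, Rps26 and Rps3a1). Ribosomal protein genes have many processed pseudogenes of near-identical sequence, so signal from a copy and from the gene cannot be told apart on these probe sets.

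**Figure D2:**
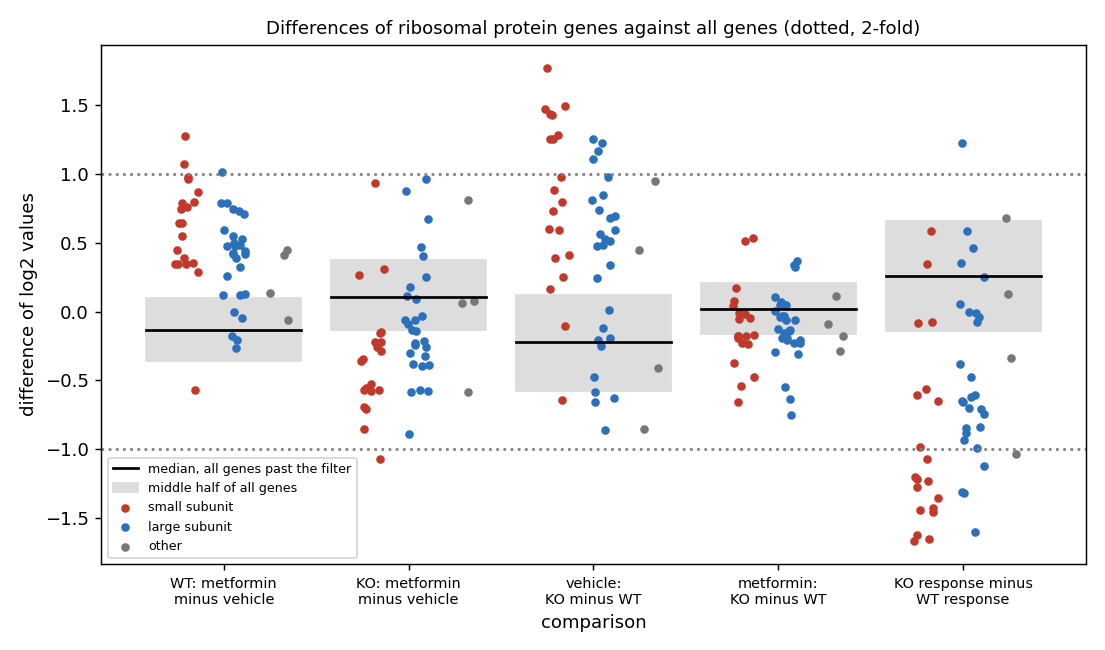
Difference of log2 values (y axis) of each ribosomal protein gene past the filter in 5 comparisons, with small subunit genes in red, large subunit genes in blue and others in grey. Black lines are medians over all 11090 genes and grey bands run from their lower to their upper quartile. Most members lie above the median of all genes in the WT response (48 of 52) and in KO minus WT under vehicle (43 of 52), and below it in the KO response (40 of 52).

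Metformin and vehicle were compared in WT mice in search of its targets in mature parietal cells, though whole-corpus arrays do not separate cell types. Members were again mostly higher, with a median difference of 0.45 against -0.14 over all genes, and 48 were higher than the median gene. At least 2-fold higher were 3 members (5.77%), against 0.775% of all genes. This count was 1 after centring each array on its median, against 0.631% of all genes, and 1 with probe sets averaged per gene, against 0.676%. The 3 were Rps19 (1.28, 2.42-fold), Rps24 (1.07) and Rpl41 (1.01), followed just short of the rule by Rps28 (0.98) and Rps25 (0.96). None was 2-fold lower, against 0.929% of all genes, and the lowest were Rps23 (-0.57), which lines the decoding centre, Rpl29 (-0.27) and Rpl5 (-0.20), a binding partner of Mdm2. This comparison and that of the genotypes under vehicle use the same WT array with vehicle and are not separate observations.

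Small subunit genes had a median of 0.64 in the WT response and large subunit genes 0.43. In the small subunit 19 of 20 genes lay above 0, the exception being Rps23. Rps18, which had several probe sets, was at 0.79, and another probe set of it was at -0.38. Dimmer probe sets of Rps19 and Rps28 were at 0.45 and 0.22, beside 1.28 and 0.98 for those used. The values of Rps23 were 5.77 in WT and 5.94 in KO under vehicle and 5.71 in KO under metformin, with WT metformin the lowest array.

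The same comparison in KO mice was aimed at parietal progenitors and cells other than parietal cells. It does not isolate them, as whole-corpus RNA of KO still held parietal transcripts (Atp4a at 12.80 and Atp4b at 13.01 under vehicle). In the KO response members were mostly lower, with a median of -0.23 against 0.11 over all genes, and 40 were lower than the median gene. Only Rps29 was 2-fold lower (-1.07, 2.10-fold; 1 member, 1.92%, against 0.613% of all genes), and none was 2-fold higher, against 2.44% of all genes. After Rps29 came Rpl34 (-0.89), Rps13 (-0.85), Rps25 (-0.70) and Rps10 (-0.69). A much brighter probe set, shared by Rpl34 and a pseudogene (mean 12.26, against 6.45), was at -0.06. Higher with metformin were Rpl29 (0.96), Rps27 (0.93), Rpl15 (0.88), Rpl6l (0.81) and Rpl10a (0.68). But a second, dimmer probe set of Rpl29 was at -0.48, and a dimmer one shared by Rpl15 and Gm10224 was at -0.30. The brighter probe set shared by Rps27 and Rps27rt was at 0.31. This comparison shares the KO vehicle array with that of the genotypes under vehicle. The single 2-fold call rests on the scaling, since after centring each array on its median none was 2-fold lower and 2 were 2-fold higher (3.85%, against 3.18% of all genes).

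The WT and KO responses share no array. The WT response was above 0 and the KO response below 0 in 34 of 52 members (65.4%), against 19.4% of all genes. Both were above 0 in 11 members (21.2%), against 15.2% of all genes. Across the 52 members the responses had a Pearson correlation of -0.43 and across all genes of -0.40, given as a description because genes on an array are not independent. As the difference of the responses, KO minus WT, members had a median of -0.68 against 0.26 over all genes. In 17 members (32.7%) the KO response was at least 1 lower, against 3.61% of all genes, and in 1 member, Rpl29 (1.23), at least 1 higher, against 11.2% of all genes. Of the 48 members at or above the filter value on every array, 16 were at least 1 lower (33.3%). The direction of Rpl29 depended on the probe set, as a second, dimmer probe set gave -0.71. Lowest were Rps25 (-1.66), Rps24 (-1.65), Rps29 (-1.63), Rpl34 (-1.60) and Rps10 (-1.46). The brighter probe set shared by Rpl34 and a pseudogene gave -0.41. Small subunit genes made up 12 of the 17 and had a median of -1.21, against -0.64 in the large subunit. The difference has no test, since each group is 1 array.

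**Figure D3:**
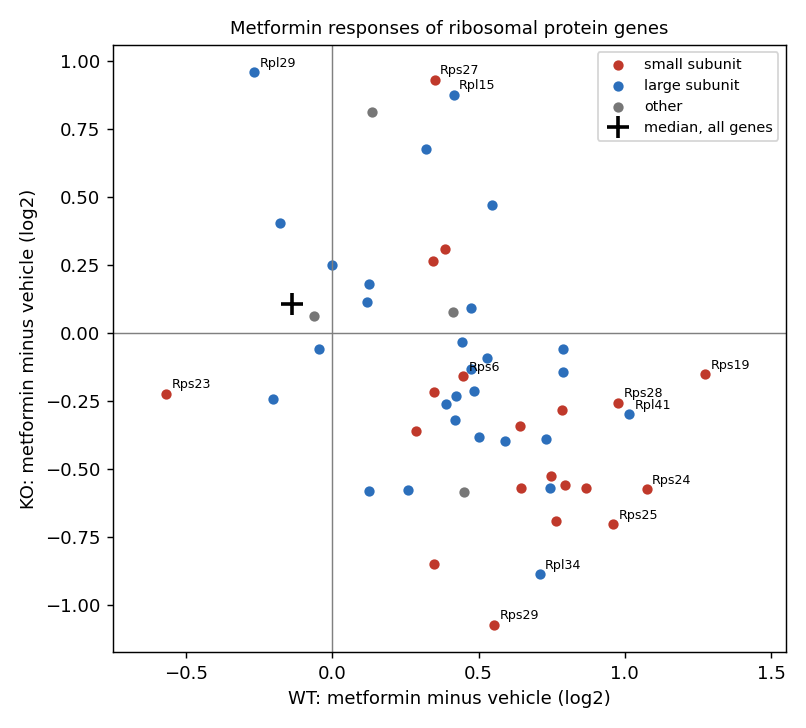
Metformin response in KO (y axis) against that in WT (x axis) for the 52 members, both as differences of log2 values, with the median of all genes as a cross. Most members lie at the lower right (34 of 52), while Rpl29, by the probe set used, lies at the upper left.

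Under metformin no member was 2-fold apart between the genotypes. Members had a median of -0.14 against 0.02 over all genes, while 0.532% of all genes were 2-fold higher and 0.388% lower in KO. The widest differences were Rpl34 (-0.75), Rps18 (-0.66), Rpl3 (-0.63), Rpl9 (-0.55) and Rpsa (-0.54) on the low side. On the high side were Rps28 (0.53), Rps23 (0.51), Rpl29 (0.37), Rpl38 (0.34) and Rpl32 (0.33). Dimmer probe sets were at -0.12 and -0.02 for Rps18, 0.02 and -0.77 for Rpl3, and -0.07 for Rpl9. Those of Rpsa, Rps28 and Rpl29 were at -0.46, 0.22 and 0.86. Rpl34 had 6.08, 6.78, 6.92 and 6.03, so its KO metformin value was next to its WT vehicle value. The brighter probe set that Rpl34 shares with a pseudogene had 11.99, 12.34, 12.39 and 12.33, a difference of -0.01 under metformin.

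The only test these 4 arrays allow is the additive limma fit of genotype and treatment, with 1 residual degree of freedom that also holds any difference between the responses. No member passed an adjusted p under 0.05 for genotype, where 5 of 11090 genes (0.0451%) did, and none passed for treatment, where 0 genes did. At an unadjusted p under 0.05, limma gave 2 members for genotype, Rps28 and Rpl38, against 3.37% of all genes, and 0 for treatment, against 0.289%. The genotype effect was 1.15 ± 0.36 (SE) for Rps28 in limma, with an adjusted p of 0.9995, and it was higher in KO on both treatments.

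Probe sets that name a ribosomal protein gene together with a pseudogene or neighbouring gene do not count as members. They cover core proteins with no probe set of their own, and also further probe sets of genes that are members, such as Rpl5 and Rpl37a. Of 57 such probe sets, 41 passed the filter and named no small nucleolar RNA. This set was chosen after the data were seen. Its median was 0.47 in the WT response, -0.27 in the KO response, 0.51 in KO against WT under vehicle and -0.11 under metformin. At least 2-fold higher under vehicle were 10 of the 41, against 6.45% of all 760 probe sets of several genes chosen by the same filter. The probe set of Rpl37a and Mir682 had 8.70, 10.01, 10.96 and 10.10, that of Rpl36 and a pseudogene 8.51, 9.49, 9.74 and 9.31, and that of Rps21 and Gm5963 9.04, 10.00, 10.02 and 9.57. In each of them WT vehicle was the lowest array. Rpl10, which joins the large subunit late in its assembly, was nearly level at 10.96, 11.15, 11.06 and 11.37. For Rpl5, the shared probe set with a pseudogene had 6.95, 7.77, 8.08 and 7.68, whereas its own probe set had 5.94, 5.74, 5.83 and 5.58.

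Paralogs were mostly dim. Of the 7, only Rps27l and Rpl7l1 passed the filter. Rps27l, a p53 target that can replace Rps27, had 6.74, 7.18, 7.68 and 7.10, lowest in WT vehicle and highest in KO vehicle, while Rps27 itself had 5.51, 5.86, 4.87 and 5.81 and was lowest in KO vehicle. Rpl7l1 had 5.38, 5.32, 4.97 and 5.03. Under the filter, Rpl22l1 had 4.45, 4.70, 5.37 and 5.15, and its partner Rpl22 had 5.44, 5.70, 5.97 and 5.39. Rpl39l and Rpl10l, known from testis, Rpl3l, known from muscle, and Rps4l, annotated as a transcribed pseudogene, had means under 5.03, and so did the single-gene probe sets of 10 core proteins. Among those core proteins, Rps15 had the widest difference under vehicle (2.91 in WT and 4.53 in KO, both under the filter value), then Rpl39 (3.88 and 4.93), while Rpl11, Rpl30, Rpl37a and Rplp2 had differences of -0.15, -0.59, -0.20 and -0.22. Brighter shared probe sets of 3 of these genes had differences of the other sign, 2.26 for Rpl37a with Mir682, 1.64 for Rplp2 with Snora52 and 0.43 for Rpl30 with Gm12191. Whether the dim probe sets follow the mature mRNA was not tested. The other core members under the filter were Rpl27a, Rpl37, Rps16 and Rps20, with differences of 0.29, 0.18, 0.02 and -0.10. Of the genes that carry only the name, Rps19bp1 had 5.98, 6.39, 6.43 and 6.51, while Rpl32l and Rps23rg1 were under the filter.

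Start-site sequences were examined for the TOP tract that many ribosomal protein mRNAs share. RefSeq promoter sequences (GRCm38.p6) were matched for 54 of the 69 members. A run of at least 5 bases, each C or T and the first a C, was searched on the gene's strand only. The base before the run was not checked, so a longer stretch of C and T can begin upstream of it. Counted from the annotated start itself, a run was found in 11 of 54 members (20.4%), against 2.86% of 8765 genes past the filter. Counted from within 5 bases of the start, it was found in 23 members (42.6%), against 23.6%. The 9 members past the filter with a run counted from the start are shown from 15 bases before the start to 15 bases from it, 5′ to 3′. Capitals mark the run from the start onward, and in all 9 the base before the capitals is also C or T.
Rpl14 (chr9:120571502-120571531, + strand): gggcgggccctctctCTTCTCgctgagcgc
Rpl15 (chr14:18270972-18271001, - strand): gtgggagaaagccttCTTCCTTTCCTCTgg
Rpl28 (chr7:4792950-4792979, + strand): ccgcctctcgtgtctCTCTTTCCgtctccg
Rpl35 (chr2:39005117-39005146, - strand): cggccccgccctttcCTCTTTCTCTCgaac
Rpl38 (chr11:114668565-114668594, + strand): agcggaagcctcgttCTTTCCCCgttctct
Rps10 (chr17:27635230-27635259, - strand): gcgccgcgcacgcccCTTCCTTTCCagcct
Rps18 (chr17:33955651-33955680, - strand): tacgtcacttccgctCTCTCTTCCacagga
Rps27 (chr3:90213634-90213663, - strand): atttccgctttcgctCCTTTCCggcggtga
Rps6 (chr4:86857353-86857382, - strand): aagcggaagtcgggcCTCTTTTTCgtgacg

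For comparison, the 2 members highest in KO under vehicle that have a single annotated start and no such run within 5 bases of it are shown over the same window.
Rps25 (chr9:44407699-44407728, + strand): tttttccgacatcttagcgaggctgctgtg
Rps28 (chr17:33824548-33824577, - strand): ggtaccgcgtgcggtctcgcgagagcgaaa
Members with a run within 5 bases had a median difference in KO under vehicle of 0.79 (17 members past the filter), and those without 0.59 (23 members). In the KO response the medians were -0.28 and -0.24. With the run required at the start itself, as in the printed sequences, both orders turned, to 0.59 with the run (9 members) and 0.68 without (31 members) under vehicle and to -0.16 and -0.26 in the KO response. Of the 9 members with the run at the start, Rpl14, Rpl38 and Rps10 were 2-fold higher in KO under vehicle, and Rpl15 and Rps27 were lower (-0.65 and -0.64). Rps10 in WT vehicle (4.41) and Rps27 in KO vehicle (4.87) were under the filter value. Where the annotated start is off by some bases, a tract would be missed.

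Other genes of translation were described from lists of known roles. Of 20 translation factors and related genes past the filter, 0 were 2-fold apart in any of the 4 comparisons of arrays. Over all genes the shares were 0.388% to 8.12%, by comparison and direction. The medians of the 20 were 0.13 in the WT response, -0.13 in the KO response and 0.05 in KO under vehicle. Those of all genes were -0.14, 0.11 and -0.22. In the same order, 15 of the 20 were higher, 14 lower and 15 higher than the median gene. The highest under vehicle were the assembly chaperone Npm1 (0.99) and Snhg1 (0.98), and the lowest the helicase Eif4a2 (-0.56) and the cap-complex protein Eif4b (-0.41). Fau, which encodes the last small subunit protein as a fusion, had 10.12, 10.60, 10.67 and 10.61. Ribosome assembly genes (41 past the filter) had a median of -0.20 under vehicle, next to that of all genes (-0.22). Of them 0 were 2-fold apart, against 2.31% of all genes higher and 8.12% lower. Npm1 stands in this list too, and Imp3 (-0.85) was its lowest member. RNA polymerase I genes, which make the ribosomal RNA precursor, had a median of 0.03 under vehicle over 17 genes. Polr2k (1.32) and Taf1d (1.10) were 2-fold higher (11.8%, against 2.31% of all genes). Tbp (-1.08) was 2-fold lower (5.88%, against 8.12% of all genes). Polr2k is a subunit shared by all nuclear RNA polymerases.

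Genes of the mTOR and S6 kinase pathway were at a median of -0.48 under vehicle over 17 genes, against -0.22 over all genes. At least 2-fold lower were 2 of the 17 (11.8%), against 8.12% of all genes. They were the mTOR inhibitors Deptor (9.74, 8.66, 7.98 and 8.97; -1.76) and Tsc2 (8.85, 8.45, 7.76 and 8.76; -1.09). The highest were the translation repressors Eif4ebp1 (0.86) and Eif4ebp2 (0.51). In the KO response the list had a median of 0.23, against 0.11 over all genes, with Tsc2 and Deptor (0.99) highest and Eif4ebp1 (-0.44) and Rps6ka3 (-0.27) lowest.

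Some other gene lists had differences of the same signs. Small nucleolar RNA genes (59 past the filter) had medians of 1.13 in the WT response, -0.56 in the KO response, 1.13 in KO under vehicle and -0.39 under metformin. The small subunits of the respiratory chain had 0.52, -0.66, 0.97 and -0.22 over 22 genes, and mitochondrial ribosomal proteins 0.18, -0.19, 0.23 and -0.13 over 68. Gene spans of these lists were not compared. The median gene span was 3311 bases in the members past the filter and 23424 bases in all genes past it. When only protein-coding genes were used and the trend on gene span was taken out, following cyclic loess, the medians of 51 members were 0.33, -0.23, 0.44 and -0.11, against -0.07, 0.03, -0.09 and 0.01 over all genes. The part of gene length or RNA quality beyond this in the differences was not tested.

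Markers of cell types also differed between the arrays. In the vehicle comparison 13 of 15 parietal markers were lower than the median gene, with a list median of -0.42, and their summed linear level was 46480 in WT vehicle, 38590 in WT metformin, 33874 in KO vehicle and 40560 in KO metformin. Smooth muscle markers had a median of -0.89 under vehicle over 12 genes, with summed levels of 15452, 16423, 8294 and 12094, and squamous markers reached 3769 on the KO metformin array against 1054 to 1310 on the other 3. Plasma, B and T cell markers, of which 4 of 11 passed the filter, had summed levels of 552, 674, 3094 and 1717, and Ighm made up most of the KO vehicle sum. Under vehicle the differences were 3.75 for Ighm and 3.07 for Jchain, both plasma cell transcripts, -0.49 for Derl3 and -0.12 for Ptprc. Their part in the differences of the ribosomal protein genes was not tested.

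**Figure D4:**
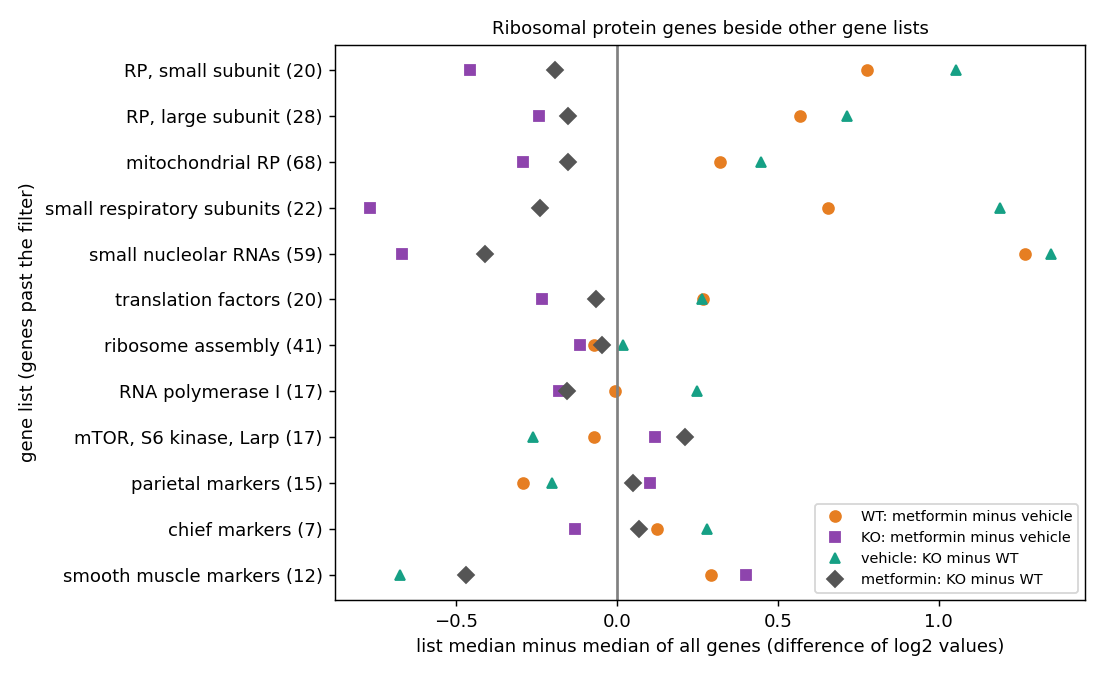
Median difference of each gene list minus the median of all genes (x axis, log2) in the 4 comparisons of arrays, with the number of genes past the filter in parentheses. Ribosomal protein genes of both subunits lie between mitochondrial ribosomal proteins and small nucleolar RNAs in the WT response, and ribosome assembly genes lie within 0.12 of 0 in each comparison.

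The scaling of the arrays moved the sizes, and the balance of calls over all genes with them. After cyclic loess the members' median in KO under vehicle was 0.73 against -0.07 over all genes, with 19 members 2-fold higher and none lower, while 3.33% of all genes were higher and 5.07% lower. After centring each array on its median it was 0.43 against -0.37, with 11 members higher and 2 lower, against 1.43% and 12.3% of all genes. Relative to all genes, the members' median was 0.80 in the deposited values and 0.80 after cyclic loess. Centring shifts members and all genes alike and cannot alter it. Relative to all genes, the median was 0.50 with no filter and 0.95 with a filter at the 75th percentile. It was 0.53 in protein-coding genes after cyclic loess with the gene span trend removed.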

How the data were processed

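The authors deposited log2 expression values per probe set, and the submitters' processing notes name RMA and Partek. Their versions, settings and annotation build were not given in the sources available here. Values ran from 0.77 to 14.02. Probe sets were named from GEO's platform annotation (23521 with 1 gene, 1814 with several), with symbols updated through a RefSeq table (GRCm38.p6) in which 23328 of the 23521 were found. The probe set with the highest mean stood for a gene.

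Differences are log2 values of 1 array minus another, counted at 2-fold. The additive fit was made in R 4.3.3 by limma 3.58.1, with moderated variances and Benjamini-Hochberg adjustment, and was tested on simulated data. Other steps used Python 3.11.15 with pandas 2.3.3, numpy 2.4.6, scipy 1.17.1 and statsmodels 0.14.6 (lowess, span 0.3). Groups came from the sample titles. The members, lists and alternatives were chosen with earlier results of these data known. Named genes are the 5 highest and 5 lowest members of each comparison, those past 2-fold, a list of members known for other roles, members whose probe sets disagree, and the 2 highest and 2 lowest genes of a list discussed. Others named were chosen after their values were seen. Protein lengths were not used here, and gene span took their place. Precision is limited by the number of arrays.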

Additional observations from a re-analysis of the deposited data

Results flagged for a closer look

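The median metformin response of the ribosomal protein genes was above 0 in WT and below 0 in KO. Among single members this held for 34 of 52 (65.4%), against 19.4% of all genes. Of the others, 11 were above 0 in both, 3 below 0 in both and 4 the reverse. Over all genes these shares were 15.2%, 18.8% and 46.6%. The difference of the responses (KO minus WT) was -0.68 for the median of 52 members against 0.26 over all genes, -1.21 for the small subunit and -0.64 for the large subunit, and with 1 array per group it was not tested.

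Among single members with responses of opposite direction and a difference of at least 1, the small subunit genes were Rps25 (-1.66), Rps24 (-1.65), Rps29 (-1.63), Rps10 (-1.46), Rps12 (-1.44), Rps19 (-1.43), Rps3 (-1.35), Rpsa (-1.27), Rps28 (-1.23), Rps3a1 (-1.21), Rps13 (-1.20) and Rps18 (-1.07). The large subunit genes were Rpl34 (-1.60), Rpl14 (-1.31), Rpl41 (-1.31) and Rpl19 (-1.12), and the paralog Rps27l was at -1.03. The brighter probe set shared by Rpl34 and a pseudogene gave -0.41. Rpl29 (1.23) ran the other way on the probe set used, lower with metformin in WT and higher in KO. On its second probe set the responses were 0.22 in WT and -0.48 in KO, a difference of -0.71. None of these differences was tested. All of them use the same 4 arrays, so they are not separate observations.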

How the results depend on the processing

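The members' median kept its sign in all 5 comparisons under the 9 alternatives run. It lay between 0.33 and 0.53 in the WT response, -0.34 and -0.14 in the KO response, 0.43 and 0.73 in KO under vehicle, -0.16 and -0.10 under metformin, and -0.87 and -0.52 in the difference of responses. Counts past 2-fold moved more. With cyclic loess 2 members were lower in the KO response and 19 higher in KO under vehicle (all genes 0.848% and 3.33%). After median centring, 1 was higher in the WT response, 2 were higher and 0 lower in the KO response (median -0.14), and 2 were lower in KO under vehicle (all genes 0.631%, 3.18%, 0.361% and 12.3%). With no filter, 1 was higher in KO under metformin (0.631%), and with a filter at the 75th percentile 0 were lower in the KO response (0.541%). With probe sets averaged per gene, 1 was higher in the WT response and 0 in the difference of responses (0.676% and 10.8%). With the gene span trend removed, 1 was higher and 0 lower in the KO response, 2 lower in KO under vehicle and 2 higher in the difference of responses (1.69%, 0.427%, 5.09% and 7.06%). A 1.5-fold rule gave 18 higher in the WT response, 5 higher and 6 lower in the KO response, 26 higher and 5 lower in KO under vehicle, 3 lower under metformin, and 2 higher and 32 lower in the difference of responses (3.57%, 12.4%, 3.72%, 7.44%, 24.4%, 2.67%, 28.5% and 9.63% of all genes, in this order). Shared probe sets, an alternative chosen after seeing the data, gave 2 lower in the KO response, 1 lower under metformin and 0 higher in the difference of responses (1.97%, 0.263% and 9.74% of probe sets of several genes). A pyrimidine run was found in 20.4% of members at the start itself and in 79.6% within 20 bases, where 54.6% of genes past the filter have one. No member passed in limma under any of its 7 alternatives for either term. The causes were not tested. No paired analysis was possible because each group has 1 array. Signal over background is unknown, which limits members near the filter value.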

Other observations

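Ribosomal protein genes are common hosts of small nucleolar RNA genes. Of the 52 members past the filter, 15 hold at least 1 within their span, with 5 in Rpl4 and 4 in Rpl7a. The median difference in KO under vehicle was 0.70 for these hosts and 0.57 for the other 37 members, and in the WT response it was 0.44 and 0.45. Processed pseudogenes with -ps in the symbol that have a probe set of their own (9 past the filter) had medians of 0.53 in the WT response, -0.10 in the KO response, 0.57 in KO under vehicle and -0.05 under metformin.

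Within the members, gene span had a Spearman correlation of -0.05 with the WT response, -0.17 with the KO response and 0.03 with the difference under vehicle (n = 52), against -0.33, 0.17 and -0.30 across 11051 genes with a known span. These are descriptions across genes of the same 4 arrays, and span is not the length of the mRNA.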
